A study of Homo sapiens with 9 samples.

Results

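Calcium-activated potassium channel genes were followed in U-373MG, an established line of human glioblastoma or astrocytoma cells. The group comprised 10 gene symbols of this family, out of 24462 symbols counted, and was listed with earlier results of these data known. It held the small-conductance channels KCNN1, KCNN2 and KCNN3, the intermediate-conductance channel KCNN4 and the large-conductance (BK) pore subunit KCNMA1. It also held the BK beta subunits KCNMB1, KCNMB2 and KCNMB4, and KCNT1 and KCNT2. The beta subunit KCNMB3 was not on the list. All 10 symbols were present in the 9 count tables. Of these genes, 4 had reads in all 9 libraries and passed the filter on low counts (KCNMA1, KCNN4, KCNN3 and KCNMB4), 3 had scattered reads (KCNMB2, KCNN1 and KCNMB1), and 3 had none (KCNN2, KCNT1 and KCNT2).

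The libraries formed 3 groups of 3: cells exposed to 200 nM of the peptide CBRV1-10493 for 48 h, cells exposed to 200 nM of the peptide NnK-1 for 48 h, and untreated control cells, which served both peptides. Both peptides are synthetic, derive from jellyfish and are called ShK-like. No vehicle and no time in culture are given for the control cells in the sources used here, and all groups are the same cell line. Each library counted between 11203094 and 13491075 reads taken near the 3′ ends of polyadenylated transcripts. On the first principal component of all tested genes (19.7% of the variance) NnK-1 replicate 2 stood apart at 52.1, with the other libraries between -18.6 and 9.00, and on the second (14.7%) CBRV1-10493 replicate 1 stood apart at 44.9, with the others between -14.0 and 9.79. Of 8 astrocyte and glioma markers, 7 averaged at least 5 CPM (counts scaled to the library total) and ALDH1L1 had no read. GFAP averaged 23.4 CPM and SOX2 430 CPM. The immune marker PTPRC and the epithelial marker EPCAM had 1 read and no read over all libraries.

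Calcium-activated potassium channels open when calcium rises inside the cell and let potassium out, which moves the membrane to more negative voltages. BK channels respond to calcium and voltage together, and their beta subunits change that sensitivity; small- and intermediate-conductance channels sense calcium through calmodulin bound to the pore subunit. In glioma cells BK channels and the KCNN4 channel are known for passing the potassium that leaves with chloride and water as a cell shrinks to move through narrow spaces. ShK itself, a sea anemone toxin, is known as a blocker of the voltage-gated channel Kv1.3 and, less strongly, of the KCNN4 channel. KCNT1 and KCNT2, though grouped with this family by descent, encode channels gated mainly by sodium.

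Upstream sequence was examined for the members, because their levels differed so widely. RefSeq start sites (GRCh38.p14) were available for 9 of the 10 members, as 13 entries. The 250 bases before the first listed start are shown for KCNMA1, KCNN4 and KCNN3, the members with the most reads among those with an entry. The windows lie at chr10:77637809-77638058 (minus strand), chr19:43780974-43781223 (minus strand) and chr1:154870282-154870531 (minus strand) in that order. Capitals mark CpG dinucleotides.
KCNMA1: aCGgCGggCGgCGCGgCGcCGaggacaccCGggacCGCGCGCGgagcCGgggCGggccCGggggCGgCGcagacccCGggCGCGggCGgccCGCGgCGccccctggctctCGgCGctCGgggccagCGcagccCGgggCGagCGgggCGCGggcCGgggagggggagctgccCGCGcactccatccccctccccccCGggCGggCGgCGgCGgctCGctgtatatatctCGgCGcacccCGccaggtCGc 
KCNN4: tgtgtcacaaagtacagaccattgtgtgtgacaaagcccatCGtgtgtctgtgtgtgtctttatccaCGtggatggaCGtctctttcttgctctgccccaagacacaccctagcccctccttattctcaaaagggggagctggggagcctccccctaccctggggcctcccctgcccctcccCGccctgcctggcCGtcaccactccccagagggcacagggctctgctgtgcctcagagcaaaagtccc 
KCNN3: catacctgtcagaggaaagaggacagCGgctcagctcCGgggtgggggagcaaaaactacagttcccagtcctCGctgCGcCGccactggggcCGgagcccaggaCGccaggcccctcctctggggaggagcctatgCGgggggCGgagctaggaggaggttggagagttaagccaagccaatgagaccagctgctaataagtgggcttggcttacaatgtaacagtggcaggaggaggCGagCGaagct

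The KCNMA1 window held 46 CpG dinucleotides, more than 99.6% of 35116 promoter entries of the same length, whose median was 11. The KCNN4 window held 5 and the KCNN3 window 11. The other listed start of KCNMA1 held 1, and the other listed starts of KCNN3 held 2 and 9. At the first listed starts CpG content did not follow the level among the members. The KCNT1 window held 29 and the KCNN1 window 24, and these genes had no reads and 12 reads over all libraries. The AP-1 motif TGANTCA, which reads the same on both strands, was absent from the 3 windows shown and present in 6.57% of all entries. It occurred at 1 other listed start each of KCNMA1 and KCNN3. Reads from 3′ ends do not tell which start was used, so these are descriptions of sequence alone.

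The pore subunit of the BK channel was by far the most frequently counted member. Because each read marks a 3′ end, a count does not grow with transcript length in this assay; levels of different genes are therefore compared as 3′-end reads and not per length. KCNMA1 stood at 199, 173 and 173 CPM in CBRV1-10493 cells, 166, 190 and 184 CPM in NnK-1 cells and 171, 164 and 181 CPM in control cells (replicates 1 to 3 in each). The 3 groups overlapped. Averaged over 9 libraries (178 CPM), KCNMA1 ranked 1086 among 18756 symbols with a read, and it supplied between 81.7% and 88.7% of all reads of the 10 members in a library. In bulk RNA, fewer cells expressing a gene and less RNA per cell cannot be told apart.

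**Figure D1:**
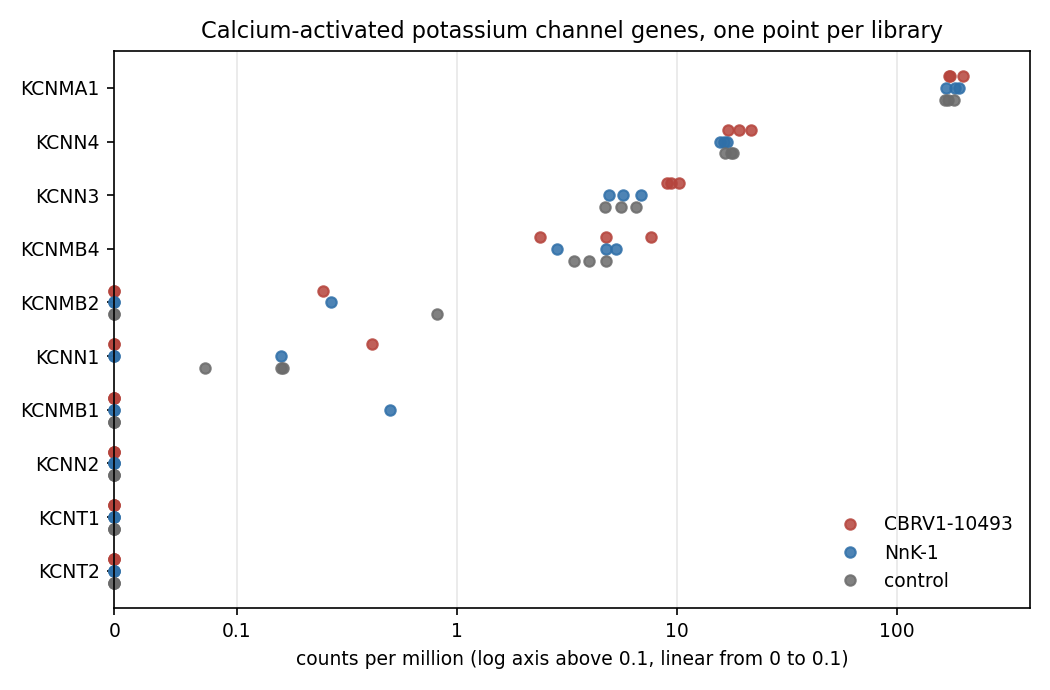
Level of each of the 10 members in CPM, 1 point per library, coloured by group, on an axis that is logarithmic above 0.1 CPM. KCNMA1 lies between 164 and 199 CPM, KCNN4 between 15.6 and 21.7 CPM, KCNN3 and KCNMB4 between 2.40 and 10.3 CPM, and the other 6 members below 1 CPM in every library.

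KCNN4, the intermediate-conductance channel, came next. It stood at 19.0, 17.1 and 21.7 CPM in CBRV1-10493 cells, 15.6, 16.3 and 16.8 CPM in NnK-1 cells and 18.0, 16.4 and 17.6 CPM in control cells. Each CBRV1-10493 library lay above each NnK-1 library, while both peptides overlapped control cells. Over all libraries KCNN4 averaged 17.6 CPM.

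KCNN3, a small-conductance channel whose currents shape the after-potential of neurons, stood at 10.3, 9.42 and 9.00 CPM in CBRV1-10493 cells, 5.66, 4.91 and 6.84 CPM in NnK-1 cells and 4.71, 6.51 and 5.56 CPM in control cells. The counts behind these values were 124, 115 and 109 reads in CBRV1-10493 cells, 71, 55 and 83 in NnK-1 cells and 58, 82 and 75 in control cells. Every CBRV1-10493 library lay above all 6 other libraries, and NnK-1 and control libraries overlapped. Of all tested genes, 3.91% had every CBRV1-10493 library above every control library and 4.71% had every one above every NnK-1 library. KCNN3 did not pass the test in either comparison (adjusted p by edgeR's quasi-likelihood test 1.00 against control and 0.994 against NnK-1).

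KCNMB4, the beta subunit of BK channels best known from the brain, spread most among the 4 members. It stood at 2.40, 4.75 and 7.59 CPM in CBRV1-10493 cells, 5.26, 2.86 and 4.78 CPM in NnK-1 cells and 3.41, 4.76 and 4.003 CPM in control cells. The lowest and the highest of the 9 libraries were both CBRV1-10493 libraries, so the groups overlapped.

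**Figure D2:**
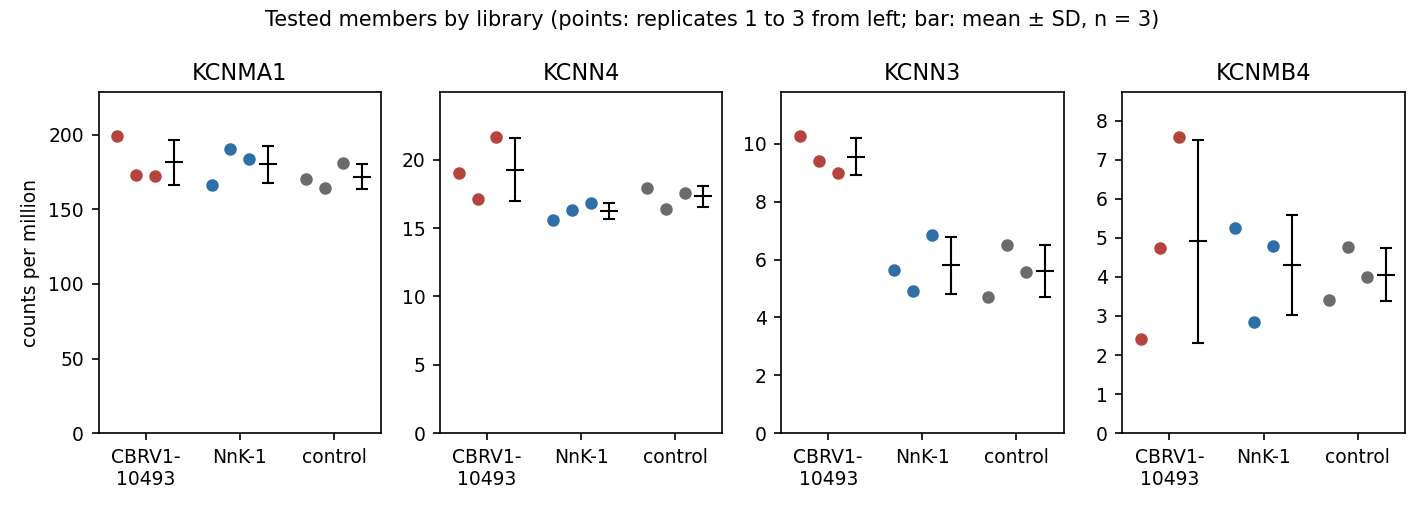
CPM of the 4 members that were tested, by group (CBRV1-10493, NnK-1, control from left), with 1 point per library and the mean ± SD of 3 libraries beside them; each axis starts at 0. KCNN3 averages 9.56 CPM in CBRV1-10493 cells, 5.80 CPM in NnK-1 cells and 5.59 CPM in control cells, and the SD of KCNMB4 in CBRV1-10493 cells, 2.60 CPM, is the widest of its 3 groups.

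The spread between libraries could be set against the spread that counting alone gives. For KCNN3 the coefficient of variation was 6.71% in CBRV1-10493 cells, 16.8% in NnK-1 cells and 16.1% in control cells, against 9.28%, 12.0% and 11.8% from counting at those depths. For KCNN4 it was 12.0%, 3.73% and 4.56% in the same order of groups, against 6.54%, 7.17% and 6.72% from counting. For KCNMA1 it was 8.22%, 6.86% and 4.86%, against 2.13%, 2.16% and 2.13%. For KCNMB4 it was 52.9%, 29.6% and 16.7%, against 12.9%, 13.9% and 13.9%. With 3 libraries a group, each coefficient is itself imprecise, and no test of these spreads was made.

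The remaining small-conductance channels were at the edge of detection. KCNN1 had 0, 0 and 5 reads in CBRV1-10493 cells, 2, 0 and 0 in NnK-1 cells and 2, 2 and 1 in control cells. KCNN2 had no read in any library, which allows a level of up to 0.0824 CPM in CBRV1-10493 cells, 0.0836 CPM in NnK-1 cells and 0.0781 CPM in control cells (3 counts over the summed total of a group, counting error only). KCNT1 and KCNT2 had no read either, with the same limits. Over all 9 libraries together the limit is 0.0271 CPM for each of these 3 genes.

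The smooth muscle beta subunit KCNMB1 had 6 reads in NnK-1 replicate 3 and none in the other 8 libraries. KCNMB2, which gives BK channels fast inactivation, had 0, 3 and 0 reads in CBRV1-10493 cells, 0, 3 and 0 in NnK-1 cells and 10, 0 and 0 in control cells. Reads of these beta subunits thus sat in single libraries of a group. Among the BK beta subunits listed, KCNMB4 was the only one with reads in every library. KCNMB3, a beta subunit outside the member list, had more reads than KCNMB4: it averaged 11.3 ± 2.65 CPM in CBRV1-10493 cells, 12.3 ± 3.83 CPM in NnK-1 cells and 11.9 ± 0.429 CPM in control cells (SD, n = 3). KCNMB3 overlaps PIK3CA on the opposite strand in GENCODE 29, KCNMB1 overlaps KCNIP1 and KCNMB2 overlaps KCNMB2-AS1. Whether strand was used in counting is not recorded in the sources used here; reads of such partners cannot be told apart.

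The first comparison asked which members differed between CBRV1-10493 cells and untreated cells. KCNN3 averaged 9.56 ± 0.641 CPM in CBRV1-10493 cells against 5.59 ± 0.900 CPM in control cells (SD, n = 3). The log2 fold change was 0.79 (95% interval 0.24 to 1.33), a 1.72-fold difference (1.18 to 2.52). Its unadjusted p in edgeR's quasi-likelihood test was 0.0073, which ranked 40 among 13676 genes, but the Benjamini-Hochberg adjusted p over all genes was 1.00. No member passed the threshold of 0.05 on the adjusted p, and 0% of all tested genes did. Of the 4 tested members KCNN3 alone had an unadjusted p under 0.05, which 2.89% of all tested genes reached.

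KCNN3 was the 1 of 4 tested members with every CBRV1-10493 library above every control library, where 3.91% of all tested genes were placed so. KCNMA1 averaged 182 ± 14.9 CPM in CBRV1-10493 cells against 172 ± 8.36 CPM in control cells, with a log2 fold change of 0.09 (-0.12 to 0.31). KCNN4 averaged 19.3 ± 2.31 against 17.3 ± 0.790 CPM, with a log2 fold change of 0.17 (-0.19 to 0.53). For KCNMA1 and KCNN4 the upper ends of these intervals correspond to 1.24-fold and 1.44-fold, so larger rises lie outside them. KCNMB4 averaged 4.91 ± 2.60 against 4.06 ± 0.678 CPM, and its interval was wide (log2 fold change 0.29, -0.54 to 1.11). The 4 fold changes had a median of 0.23, beside a median of 0.003 over all tested genes, and only the interval of KCNN3 lay above 0. The like medians of the members were 0.09 for NnK-1 against control and 0.21 between the peptides. A median of 4 genes is imprecise, and no test of it was made. Adjusted p was 1.00 for each of the 4 by edgeR.

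The KCNN3 difference was of like size without single libraries. Its log2 fold change lay between 0.67 (without control replicate 1) and 0.90 (without control replicate 2) when each of the 9 libraries was left out in turn, and it was 0.73 without both libraries that stood apart. The unadjusted p of KCNN3 stayed between 0.0043 and 0.034 over all 20 alternatives, and its adjusted p between 0.999 and 1.00. KCNMB4 rested on 1 library: without CBRV1-10493 replicate 3 its log2 fold change was -0.17, and without CBRV1-10493 replicate 1 it was 0.61.

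The second comparison asked the same of NnK-1 cells and untreated cells. KCNMA1 averaged 180 ± 12.4 CPM in NnK-1 cells against 172 ± 8.36 CPM in control cells, with a log2 fold change of 0.10 (-0.12 to 0.31). KCNN4 averaged 16.3 ± 0.606 against 17.3 ± 0.790 CPM, a log2 fold change of -0.06 (-0.42 to 0.30). For both genes the NnK-1 and control libraries overlapped. KCNN3 averaged 5.80 ± 0.976 against 5.59 ± 0.900 CPM, a log2 fold change of 0.08 (-0.48 to 0.64). KCNMB4 averaged 4.30 ± 1.27 against 4.06 ± 0.678 CPM, a log2 fold change of 0.11 (-0.72 to 0.94). No member passed, and adjusted p lay between 0.879 and 0.977 by edgeR; 0% of all tested genes passed. At an unadjusted p under 0.05 there was no member, where 7.33% of all tested genes reached it. None of the 4 members had fully separated groups, where 13% of tested genes did. The intervals leave out a fold above 1.24 for KCNMA1, above 1.23 for KCNN4, above 1.55 for KCNN3 and above 1.92 for KCNMB4. The signs for KCNN3 and KCNMB4 were not stable: without NnK-1 replicate 3 KCNN3 was at -0.06 (0.20 without control replicate 2), and without NnK-1 replicate 1 KCNMB4 was at -0.05 (0.32 without NnK-1 replicate 2).

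**Figure D3:**
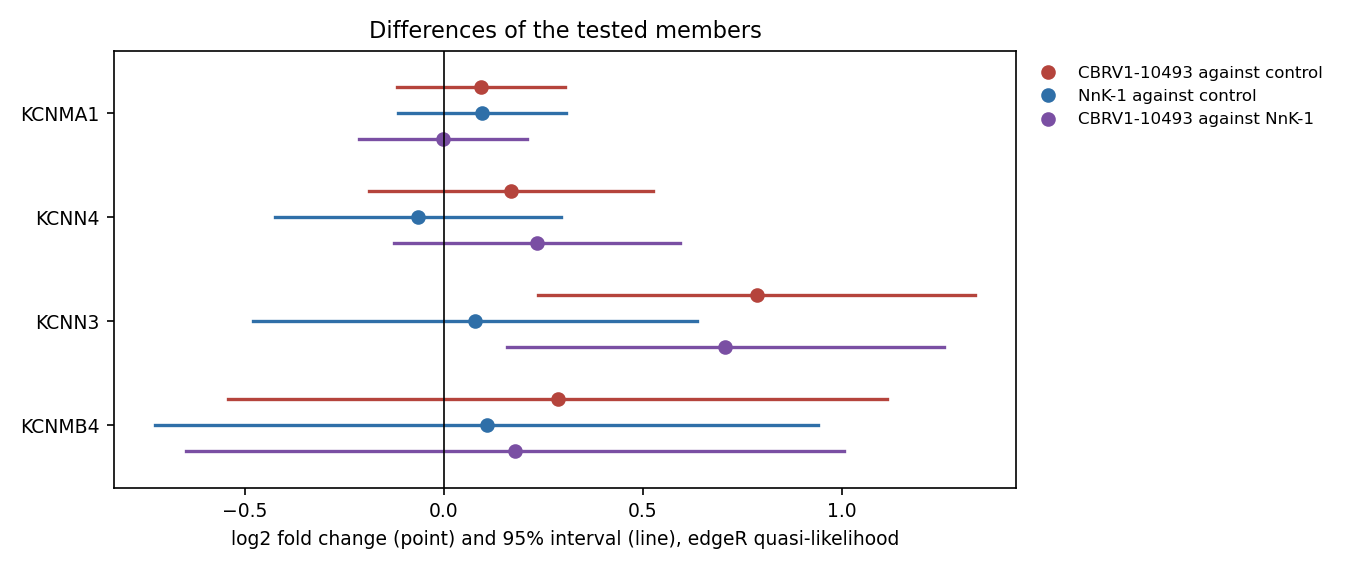
Log2 fold changes (points) with 95% intervals (lines) of the 4 tested members in 3 comparisons, from edgeR's quasi-likelihood fit; the first group named is on top of the ratio. The intervals of KCNN3 lie above 0 for CBRV1-10493 against control (0.24 to 1.33) and against NnK-1 (0.16 to 1.26), and all the other intervals include 0.

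The remaining comparison was between CBRV1-10493 cells and NnK-1 cells, the 1 pair of peptides, whose dose and duration matched. KCNN3 averaged 9.56 ± 0.641 CPM in CBRV1-10493 cells against 5.80 ± 0.976 CPM in NnK-1 cells. The log2 fold change was 0.71 (0.16 to 1.26), a 1.63-fold difference (1.12 to 2.39). By edgeR the unadjusted p was 0.014, ranked 143 among all tested genes, and the adjusted p was 0.994. KCNN4 averaged 19.3 ± 2.31 against 16.3 ± 0.606 CPM, a log2 fold change of 0.23 (-0.13 to 0.59). KCNMA1 averaged 182 ± 14.9 against 180 ± 12.4 CPM, a log2 fold change of -0.001 (-0.21 to 0.21), whose sign turned with the scaling (0.018 with upper-quartile factors). KCNMB4 averaged 4.91 ± 2.60 against 4.30 ± 1.27 CPM, a log2 fold change of 0.18 (-0.65 to 1.01).

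No member passed between the peptides (0% of all tested genes), with adjusted p from 0.994 to 1.00 by edgeR. KCNN3 was again the 1 member with an unadjusted p under 0.05, where 4.31% of all tested genes had one. Of the 4 tested members, 2 (KCNN3 and KCNN4) had every CBRV1-10493 library above every NnK-1 library, against 4.71% of tested genes. This comparison and the first share the CBRV1-10493 libraries, so their KCNN3 values are not independent. Without both libraries that stood apart the log2 fold change of KCNN3 was 0.55 (unadjusted p by edgeR 0.098), and KCNMB4 was at -0.27 without CBRV1-10493 replicate 3 (0.50 without CBRV1-10493 replicate 1).

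**Figure D4:**
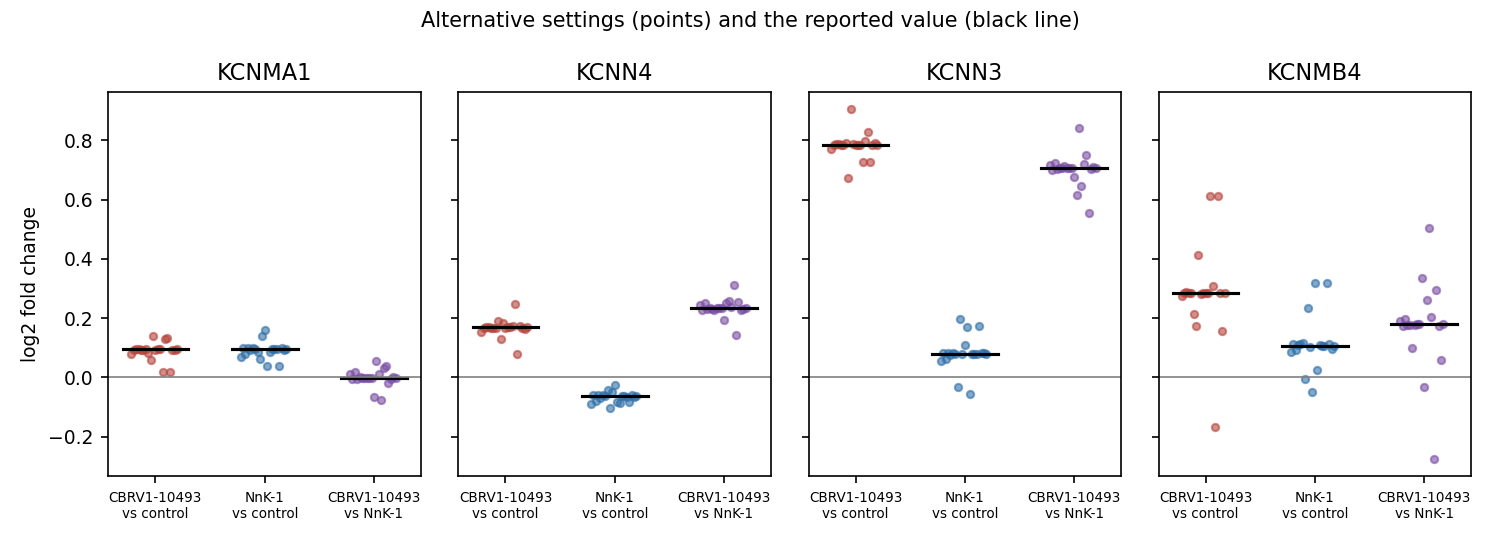
Log2 fold change of the 4 tested members in 3 comparisons under each alternative setting (points) with the reported value (black line). KCNN3 stays between 0.67 and 0.90 for CBRV1-10493 against control and between 0.55 and 0.84 between the peptides, while KCNMB4 runs from -0.17 to 0.61 for CBRV1-10493 against control.

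Ratios of members within a library do not depend on how libraries are scaled. KCNN3 made up 35.0%, 35.5% and 29.3% of the KCNN3 and KCNN4 reads in CBRV1-10493 cells, 26.6%, 23.1% and 28.9% in NnK-1 cells and 20.8%, 28.4% and 24.0% in control cells. The lowest CBRV1-10493 library (29.3%, 95% Wilson interval 24.9 to 34.1%) lay above the highest NnK-1 library (28.9%, 24.0 to 34.4%) and the highest control library (28.4%, 23.5 to 33.8%) by less than their counting error. Group means were 33.3% ± 3.45 in CBRV1-10493 cells, 26.2% ± 2.92 in NnK-1 cells and 24.4% ± 3.81 in control cells (SD, n = 3). KCNMB4 reads, set against the sum of KCNMB4 and KCNMA1 reads, were 1.19%, 2.67% and 4.21% in CBRV1-10493 cells, 3.06%, 1.48% and 2.54% in NnK-1 cells and 1.96%, 2.82% and 2.17% in control cells. The intervals of the lowest (0.831 to 1.71%) and highest (3.45 to 5.14%) CBRV1-10493 libraries did not meet. Intervals cover counting error only.

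**Figure D5:**
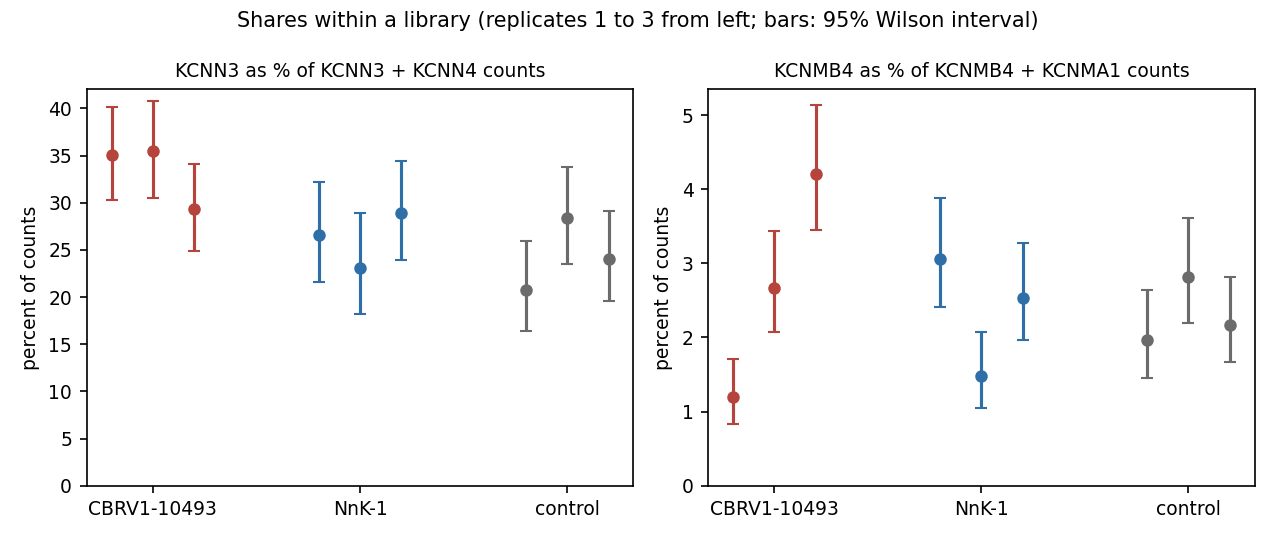
Percent of KCNN3 reads among KCNN3 and KCNN4 reads (left) and of KCNMB4 reads among KCNMB4 and KCNMA1 reads (right), 1 point per library with its 95% Wilson interval, groups from left CBRV1-10493, NnK-1 and control. The KCNN3 share is 29.3% or more in the CBRV1-10493 libraries and 28.9% or less in the others, and the KCNMB4 share runs from 1.19% to 4.21% within CBRV1-10493 cells.

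Summed over the 10 members, libraries held 231, 205 and 211 CPM in CBRV1-10493 cells, 193, 215 and 213 CPM in NnK-1 cells and 198, 192 and 208 CPM in control cells. These sums are mainly KCNMA1, and the groups overlapped.

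Genes that work with these channels were read from lists that were chosen with earlier results of these data known. Of 14 genes for calmodulin, the kinase CK2 and the phosphatase PP2A, which set the calcium response of small-conductance channels, and for regulators of KCNN4, all were tested and none passed in any comparison. The calmodulin genes CALM2 and CALM3 averaged 1032 and 453 CPM over 9 libraries. The median log2 fold change of the list was -0.004 for CBRV1-10493 against control, 0.03 for NnK-1 against control and -0.0005 between the peptides, beside 0.003, 0.003 and 0.001 over all tested genes. The smallest unadjusted p-values belonged to CSNK2A2 and CSNK2A1, catalytic subunits of CK2, and to NME2, a histidine kinase that activates KCNN4. CSNK2A2 stood at 46.9 CPM in CBRV1-10493 cells against 38.3 CPM in NnK-1 cells and 39.8 CPM in control cells, with a log2 fold change of 0.28 between the peptides (-0.004 to 0.57). CSNK2A1 stood at 59.2 CPM in CBRV1-10493 cells against 66.7 CPM in NnK-1 cells (-0.19, interval -0.44 to 0.06). NME2 had 9, 1 and 13 reads in NnK-1 cells against 24, 21 and 21 in control cells (-1.41, interval -2.93 to 0.11). The NME1-NME2 readthrough transcript covers NME2, and how shared reads were assigned is not recorded in the sources used here. The part of this in the NME2 values was not tested.

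Of 5 genes acting on BK channels, 4 were tested and none passed in any comparison. PRKCA, a protein kinase C isoform that regulates BK channels, stood at 52.8 CPM in CBRV1-10493 cells, 50.1 CPM in NnK-1 cells and 44.5 CPM in untreated cells. Its log2 fold change for CBRV1-10493 against control was 0.26, with an unadjusted 95% interval of 0.01 to 0.52. PRKCA was named for having the smallest p of this list. That p, 0.043 by edgeR's quasi-likelihood test, ranked 336 among all tested genes, of which 2.89% were under 0.05. PRKACA, the catalytic subunit of protein kinase A, stood at 111 CPM in NnK-1 cells against 132 CPM in control cells (-0.22, interval -0.45 to 0.01). PRKACB, its relative, stood at 34.3 CPM in CBRV1-10493 cells against 30.0 CPM in NnK-1 cells (0.18).

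Calcium entry, release and clearance were covered by 18 genes, of which 15 were tested and none passed in any comparison. The store-operated channel ORAI2 averaged 149 CPM, the store sensor STIM1 89.6 CPM and the store release channel ITPR2 56.1 CPM over 9 libraries. TRPC1, a cation channel, stood at 3.90 CPM in NnK-1 cells and 6.62 CPM in untreated cells. Its log2 fold change was -0.73, with an unadjusted 95% interval of -1.44 to -0.02. TRPC1 was named for its small p within this list. By edgeR's quasi-likelihood test that p was 0.044 (adjusted 0.676) and ranked 877 among all tested genes, of which 7.33% were under 0.05. TRPM7 stood at 47.3 against 57.0 CPM in the same groups (-0.24). In CBRV1-10493 cells TRPC1 stood at 4.73 CPM (-0.47 against control) and TRPM7 at 49.1 CPM (-0.20). RYR3, a release channel, had 31, 2 and 17 reads in CBRV1-10493 cells against 2, 0 and 5 in NnK-1 cells and 28, 3 and 9 in control cells. The median of the list was 0.03 for CBRV1-10493 against control, -0.02 for NnK-1 against control and 0.07 between the peptides.

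Chloride, water and cotransport partners of cell volume change numbered 12, of which 10 were tested and none passed in any comparison. The chloride transporter CLCN3 averaged 108 CPM and the cotransporter SLC12A2 73.8 CPM over 9 libraries. LRRC8A, the essential subunit of the volume-regulated anion channel, stood at 133 CPM in NnK-1 cells and 120 CPM in untreated cells (log2 fold change 0.17, with a 95% interval of -0.04 to 0.39). In CBRV1-10493 cells LRRC8A stood at 131 CPM (0.14 against control). The water channel AQP1 stood at 13.7 CPM in NnK-1 cells against 10.7 CPM in control cells (0.39), and at 13.4 CPM in CBRV1-10493 cells (0.34). Of 6 further channel relatives, KCNMB3 alone was tested, with a log2 fold change of -0.06 for CBRV1-10493 against control, 0.08 for NnK-1 against control and -0.14 between the peptides. The pore subunit KCNU1 had 1 read and the gamma subunit LRRC26 had 8 reads over all libraries, while LRRC38, LRRC52 and LRRC55 had none.

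Genes whose levels followed a member most closely over the 9 libraries were read by Pearson's r on log2(CPM + 0.5) among 10615 genes averaging at least 5 CPM. For KCNMA1 these were KAT7 (0.97), CDC42BPB (0.95) and CAP1 (0.95), for KCNN4 RASSF2 (0.91), AP4B1 (0.90) and PPM1M (0.90), and for KCNN3 APPBP2 (0.92), MAPK1IP1L (0.91) and KIFC3 (0.89). APPBP2 stood at 60.8, 63.0 and 53.6 CPM in CBRV1-10493 cells, 47.4, 43.5 and 52.5 CPM in NnK-1 cells and 47.9, 50.9 and 49.4 CPM in control cells. These values describe 9 libraries, and the genes were picked as the closest of all genes compared. An r of at least 0.8 was reached by 122 genes for KCNMA1, 23 for KCNN4 and 25 for KCNN3. CBRV1-10493 replicate 1 and NnK-1 replicate 2 stood apart on the principal components. They were the highest libraries for KCNMA1 (199 and 190 CPM), KAT7 (77.4 and 70.0 CPM) and CAP1 (419 and 416 CPM). The libraries also differed in depth and composition. The part of such differences and of the libraries that stood apart in the r values was not tested.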

How the data were processed

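RNA of U-373MG cells was measured in 9 libraries made, per the labels, from 500 ng of total RNA with the QuantSeq 3′ kit. The deposited files hold the authors' raw read counts per gene symbol, with no normalization; per the submitters' processing notes Bowtie2, bedtools and hg19 were used, with versions, annotation and strand setting not given in the sources used here. Each file has 25737 entries; rows of a symbol were summed (286 symbols, no member among them), which left 24462.

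Groups came from the labels. Replicates are called biological there, with no word on separate cultures, so a p-value rests on the spread between these libraries alone and that spread may be technical. filterByExpr (minimum count 10, minimum total 15) kept 13676 genes, 4 of the 10 members. After TMM scaling the counts entered the quasi-likelihood model of edgeR 4.0.16 (R 4.3.3) over all 9 libraries, two-sided, with Benjamini-Hochberg adjustment over all tested genes and a threshold of 0.05. CPM shown are counts over library totals; errors are SDs. Likeness used Pearson's r. All members were named; from other lists, up to 3 genes with the smallest p in any comparison, plus CALM2, CALM3, ORAI2, STIM1, ITPR2, CLCN3, SLC12A2 and the marker genes, named for their levels after these were seen; some listed genes are not reported here. Members and lists were chosen with earlier results of these data known. Alternatives, with DESeq2 1.42.0 and limma 3.58.1 among them, are given in the closing section.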

Additional observations from a re-analysis of the deposited data

How the results depend on the processing

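No member passed the adjusted threshold under any of the alternatives in any comparison, and 4 members averaged at least 1 CPM over the libraries under each scaling and each left-out library. Over all tested genes 0 passed in edgeR as reported, where an unadjusted p under 0.05 was reached by 395 genes with CBRV1-10493 against control, 1002 with NnK-1 against control and 589 between the peptides. Without a filter on low counts 6, 74 and 1 genes passed in that order; DESeq2 passed 3 for NnK-1 against control and edgeR's exact test 2 for CBRV1-10493 and 8 for NnK-1 against control, and limma-voom 0. The cause was not tested.

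KCNMA1 between the peptides, at -0.001, changed sign to 0.011 with library totals alone, 0.018 with upper-quartile factors, 0.00027 with at least 5 CPM in 3 libraries and 0.00011 by limma-voom. Leaving out each library in turn gave -0.078 to 0.056 for that value. The same gave -0.055 to 0.20 for KCNN3 and -0.049 to 0.32 for KCNMB4 in NnK-1 against control, -0.17 to 0.61 for KCNMB4 in CBRV1-10493 against control and -0.27 to 0.50 for KCNMB4 between the peptides. KCNMB4 has no value with at least 5 CPM in 3 libraries, since it was not tested there. KCNN4 kept its sign under all 20 alternatives in each comparison.

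Beyond the number, the labels state no link between same-numbered libraries. The deviations of same-numbered libraries from their group means correlated at -0.0566 to 0.132. For differently numbered libraries of different groups the range was -0.0933 to 0.0975. Whether a shared number marks a shared culture or batch was not tested. With the replicate block 0 genes and 0 members passed in each comparison, and KCNN3 stood at 0.79 for CBRV1-10493 against control. Depth limits the rarer members most: a group with no read allows up to 0.0836 CPM.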

Other observations

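Antisense transcripts annotated across the members had few reads. KCNMA1-AS1 had 5, 5 and 0 reads in CBRV1-10493 cells, none in NnK-1 cells and 2, 0 and 0 in control cells. KCNMA1-AS3 had 0, 1 and 0 reads in CBRV1-10493 cells, none in NnK-1 cells and 0, 5 and 0 in control cells, and KCNMA1-AS2 had none in any library. KCNMB2-AS1 had 0, 0 and 7 reads in CBRV1-10493 cells, none in NnK-1 cells and 0, 4 and 0 in control cells; the libraries with its reads were not those with reads of KCNMB2. KCNIP1, which overlaps KCNMB1 on the opposite strand, had 12 reads over all libraries, and 0 in NnK-1 replicate 3, the library that held all 6 reads of KCNMB1.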
